A study of Rattus norvegicus with 23 samples.

Results

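The miRNA profile of normal rat mammary tissue was described from 7 arrays, which are those whose tissue label reads normal mammary, of 23 arrays in all. The other 16 arrays hold mammary carcinomas, 8 spontaneous and 8 radiation-induced, and they enter here only through the scaling between arrays, the floor and the choice of 1 probe per miRNA. All 23 samples came from female Sprague-Dawley rats, an outbred laboratory strain. The labels of the normal tissues name no treatment, and they do not say whether the 7 tissues came from separate animals, so the spread between arrays may be partly technical. Neither the age of the animals nor the part of the gland taken is given in the sources used here. Each array is a 1-colour Agilent miRNA array with probes for 350 miRNAs, and every one of them was kept in the description.

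A miRNA is a short RNA that an Argonaute protein carries to messenger RNAs, where the bases near its 5′ end, the seed, pair with the target and lower its translation or stability. miRNAs with the same seed are counted as a family, since they can pair with the same sites. The mammary gland is a tree of epithelial ducts, with luminal and contractile myoepithelial cells, embedded in a fat pad with fibroblasts, vessels, nerves and leukocytes, and a whole-tissue RNA sample holds miRNAs of all of them.

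The mature sequences of the miRNAs that carried most of the signal are shown first, since their shared seeds group them. They were taken from RefSeq (build GRCr8), where all 25 of the brightest miRNAs had a match, and the seed, bases 2 to 8 from the 5′ end, is in capitals. The brightest miRNA was miR-21, with a seed that no other of the 25 shared. The let-7 miRNAs, known for holding cells in a differentiated state, shared 1 seed in 6 of the 25.
miR-21: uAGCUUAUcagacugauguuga
let-7c: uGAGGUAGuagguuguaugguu
let-7a: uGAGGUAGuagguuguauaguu
let-7f: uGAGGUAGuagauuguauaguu
let-7b: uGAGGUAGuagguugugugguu
let-7i: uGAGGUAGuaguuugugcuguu
let-7d: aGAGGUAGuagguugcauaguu
The miR-29 pair, which represses collagens and other matrix genes, and the miR-23 pair shared a seed within each pair.
miR-29a: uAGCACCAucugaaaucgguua
miR-29b: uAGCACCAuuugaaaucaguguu
miR-23a: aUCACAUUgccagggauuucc
miR-23b: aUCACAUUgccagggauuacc
The family of miR-16, known for repressing cyclins and Bcl2, had 3 members among the 25, and miR-322, a dimmer miRNA described further on, carried the same seed.
miR-16: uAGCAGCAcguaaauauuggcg
miR-195: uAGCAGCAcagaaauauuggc
miR-497: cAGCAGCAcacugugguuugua
miR-322: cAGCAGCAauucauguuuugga
The epithelial miRNAs miR-200c and miR-141 are neighbours on chromosome 4 in GRCr8, and their seeds differ.
miR-200c: uAAUACUGccggguaaugaug
miR-141: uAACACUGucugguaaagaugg
The 25 brightest miRNAs were 21 to 23 bases long and held 16 different seeds, and 18 of them began with U. Some neighbours in this list are nearly identical in sequence: let-7a and let-7c differ at 1 of 22 bases, as do let-7a and let-7f and let-7b and let-7c, and miR-23a and miR-23b differ at 1 of 21. Signal on 1 of such a pair of probes may include the other miRNA, so the split of signal within these pairs is uncertain, and so is their summed share.

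The 7 arrays differed in brightness and in how many miRNAs they detected. The 75th percentile of signal, before scaling, ran from 960 on normal 6 to 2494 on normal 3, with a median of 1410. No miRNA spot was saturated. Spots of the same probe varied little within an array, with a median SD of 0.0623 to 0.0952 on the log2 scale. The arrays lay on 4 slides, each scanned once: normals 1 and 2 on slide 1, normals 3 and 4 on slide 2, normals 5 and 6 on slide 3 and normal 7 on slide 4. Within a slide, normals 1, 3 and 5 held position row 3 and normals 2, 4, 6 and 7 held row 4. As a description across the 172 miRNAs detected on all 7 arrays, which share each array's depth and probes, Pearson's r was 0.958 to 0.979 for the 3 pairs on the same slide and 0.947 to 0.991 for the 18 pairs on different slides. In none of the 21 pairs did any probe have an identical value on both arrays.

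Many miRNAs were seen in every normal tissue, and a smaller set in none. Detection required that, for at least 1 probe of the miRNA, most spots stood well above background. By that measure 172 of 350 miRNAs (49.1%) were detected on all 7 arrays, 60 (17.1%) on some and 118 (33.7%) on none. Each array detected 195 ± 13.9 miRNAs (SD, n = 7), from 180 on normal 1 to 212 on normal 3. The 3 arrays with over 200 detected miRNAs were normals 2, 3 and 4, and the lowest signal that stood well above background was also lowest on these 3 arrays, at 4.32, 3.90 and 4.77 scaled units against 8.54 to 9.56 on the other 4. Of the 60 miRNAs found on some arrays, 27 were found on 1 array alone, and 17 of these 27 on normal 3. Star forms, the less abundant strand of a hairpin in the names of this array design, were detected on all 7 arrays for 18 of 58, against 154 of 292 other miRNAs.

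**Figure D1:**
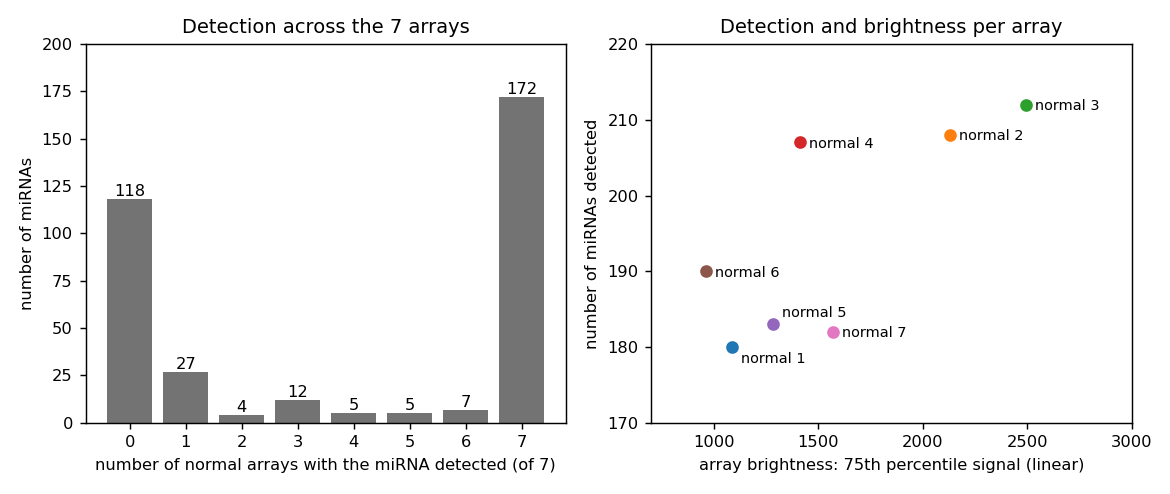
Left, number of miRNAs (y axis) by the number of the 7 normal arrays on which they were detected (x axis); right, number of miRNAs detected on each array (y axis, which starts at 170) against the array's 75th percentile signal before scaling (x axis, linear units). The bars at 0 and 7 arrays hold 118 and 172 of the 350 miRNAs, and normals 2, 3 and 4 detected 207 to 212 miRNAs where the other 4 detected 180 to 190.

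A few miRNAs carried most of the signal. The share of a miRNA is its percentage of the summed signal of all 350 on the same array, which needs no scaling between arrays. Probes bind and label with different efficiency, so a rank is a rank of probe brightness and not of copies. The 10 brightest miRNAs of each array held 50.1% ± 2.25 of the signal (SD, n = 7), with a lowest value of 47.9%, a median of 49.6% and a highest of 53.2%. Between 9 and 11 miRNAs made up 50% of the signal of an array, and 48 to 53 made up 90%. The miRNAs not detected on an array together held 0.107% ± 0.0385 of its signal. All 25 of the brightest were detected on all 7 arrays, 19 of them were among the 25 brightest of every single array, and the brightest miRNA missed on any array, miR-1, ranked 139.

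**Figure D2:**
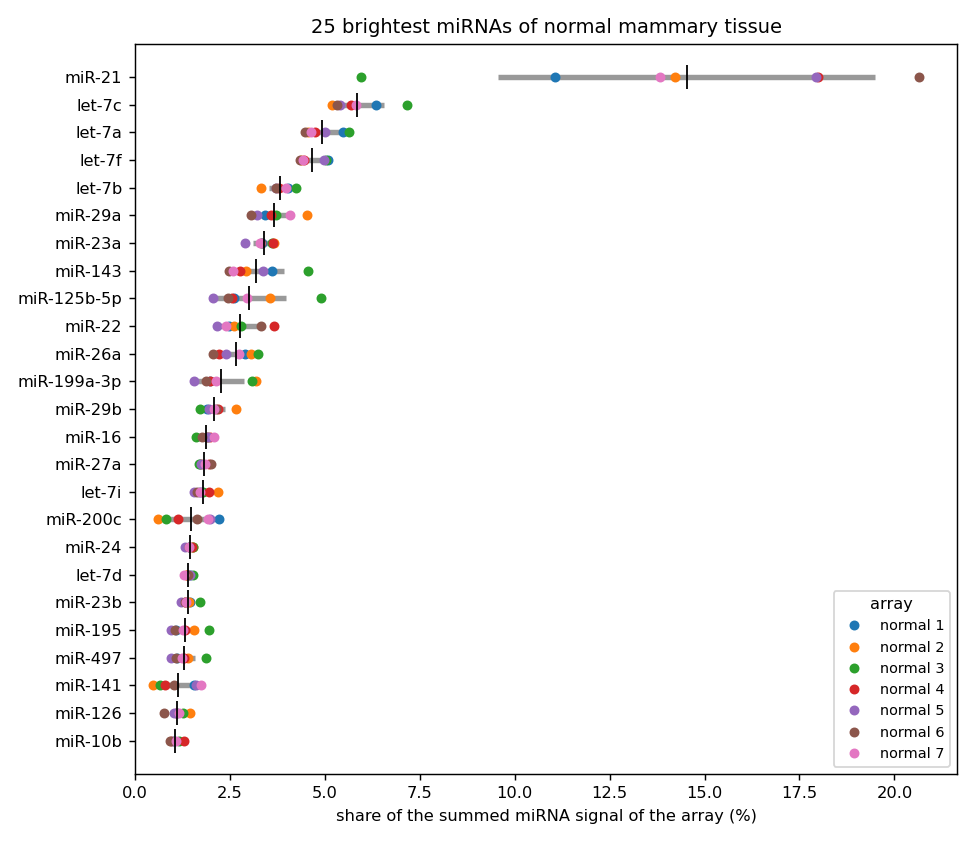
Share of the summed miRNA signal of the array (x axis, %) of the 25 miRNAs with the highest mean share, one per line; coloured points are the 7 arrays, the black tick is the mean and the grey bar is ± 1 SD. miR-21 led with 14.5% ± 4.95 and the widest spread of points, and let-7c followed with 5.85% ± 0.699.

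miR-21, a miRNA abundant in many tissues that represses Pdcd4, was the brightest on 6 of the 7 arrays. Its share was 14.5% ± 4.95 (SD, n = 7), with a lowest value of 5.96%, a median of 14.2% and a highest of 20.7%. On the log2 scale its level was 14.14, 14.47, 13.17, 14.89, 14.96, 15.13 and 14.52 on normals 1 to 7, an SD of 0.66. Normal 3 stood below the other 6 arrays, and there let-7c was brighter, at 7.17% of the signal. Without normal 3 the SD of miR-21 was 0.370. Normal 3 held row 3, and miR-21 was higher in row 4 than in row 3 by 0.32, 1.72 and 0.17 on slides 1, 2 and 3. The part of position was not tested.

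The let-7 family was the largest block of signal after grouping by seed. Its 6 members among the 25 brightest, which share the seed printed above, held 22.5% ± 1.67 of the signal, more than miR-21 did on average. That sum is uncertain, since probes of near-identical members may pick up the same miRNA. let-7c held 5.85% ± 0.699, let-7a 4.93% ± 0.463, let-7f 4.67% ± 0.342 and let-7b 3.83% ± 0.296. These 4 varied little between arrays, with log2 SDs of 0.11 to 0.13. With let-7e and miR-98 added, all 8 members of the family were detected on all 7 arrays, as were 172 of all 350 miRNAs. The median SD of the 8 was 0.126, and none of them was above the median SD of 0.316 over those 172.

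The other bright miRNAs are known from stromal, muscle and general cell functions. miR-29a and miR-29b, with a shared seed, together held 5.74% ± 0.724 of the signal, and miR-23a and miR-23b 4.79% ± 0.392. The clusters that carry miR-23, miR-27 and miR-24 were the steadiest list: all 5 members were detected on all arrays and held 8.65% ± 0.506, with a median SD of 0.0813. miR-143, which smooth muscle, myoepithelial cells and fibroblasts make, held 3.18% ± 0.731, and normal 3 was highest at 4.56%. Its cluster partner miR-145 had a share of 0.0174% ± 0.00687, and it too was highest on normal 3. miR-125b-5p, a relative of the worm lin-4 miRNA, held 3.01% ± 0.952 and was highest on normal 3, at 4.90%. The seed family of miR-16, miR-195 and miR-497 held 4.47% ± 0.574. Among the rest of the 25 were miR-22 with 2.78% ± 0.542, miR-26a, which represses Ezh2, with 2.66% ± 0.447, and miR-10b, which lies in a Hox gene cluster, with 1.05% ± 0.129.

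The label was checked against lists of miRNAs that mark cell types, and the epithelial list was present on every array. Of all 350 miRNAs, 172 (49.1%) were detected on all 7 arrays. All 10 epithelial markers were detected on all 7 arrays, namely the 5 members of the miR-200 family, miR-203, miR-205 and the miR-183 cluster of miR-96, miR-182 and miR-183. Together they held 5.35% ± 1.89 of the signal, from 2.72% on normal 2 to 7.49% on normal 1. miR-200c and miR-141, which repress the transcription factors Zeb1 and Zeb2 that turn off epithelial genes, were 2 of the 25 brightest. Of the stromal lists, the 4 fibroblast markers held 3.72% ± 1.04, the 4 endothelial markers, with miR-126 of the Egfl7 gene as the brightest, held 1.25% ± 0.190, and all 8 were detected on all arrays. The 7 miRNAs tied to adipose tissue, which other tissues also make, held 1.81% ± 0.316. Of the 6 leukocyte markers on the array (miR-155 was not analysed here), all 6 were detected on all arrays and held 2.77% ± 0.674. In such bulk samples, fewer cells of a type and less RNA per cell cannot be told apart.

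Markers of tissues outside the gland held little of the signal, though some were detected. Over all miRNAs, 232 of 350 were detected on at least 1 array, 172 of them on all 7, and 118 were detected on none. Of 12 neural miRNAs, 8 were detected on no array, including miR-9, miR-124 and miR-137, and the list held 0.126% ± 0.0257 of the signal. Of 7 miRNAs of liver, gut, pancreas and kidney, miR-215, miR-216a and miR-217 were detected on no array, miR-192 and miR-375 on all 7, miR-194 on 4 and miR-122 of the liver on 6 at levels up to 4.61. The list held 0.186% ± 0.117, most of it from miR-375. Of 6 striated muscle miRNAs, miR-133b, miR-206 and miR-499 were detected on all 7 arrays, miR-1 on 6, and miR-133a and miR-208 on none. The list held 0.0781% ± 0.0660. miR-133a and miR-133b differ at 1 of 22 bases.

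The epithelial markers moved together on most arrays, though not on normals 3 and 6. All 10 were below their own means on normals 2 and 4 and above them on normals 5 and 7. On normal 3, 3 were above and 7 below, and on normal 6, 6 were above and 4 below. miR-200a was lowest on normal 4, at 9.33, and stood at 10.39 on normal 3. miR-200c had a log2 level of 11.82, 9.93, 10.30, 10.90, 11.78, 11.47 and 11.67 on normals 1 to 7, an SD of 0.76 and a 3.73-fold range. Normals 2 and 3 were lowest, and normals 1 and 5 highest. Over the 10 markers, the mean deviation from each one's 7-array mean was 0.53, -0.997, -0.42, -0.37, 0.63, 0.04 and 0.59 on normals 1 to 7. The list's median SD was 0.690, and 9 of its 10 members had an SD above the overall median of 0.316. The exception was miR-205, a marker of basal and myoepithelial cells, with an SD of 0.30 and levels from 9.22 to 9.98. Normal 2 and normal 1, which differed most in share, lay on the same slide. Normal 2, where the epithelial list was lowest, held the highest summed share of the fibroblast, endothelial, leukocyte, erythroid and striated muscle lists. By mean deviation normal 2 was highest only for the erythroid and striated muscle lists among these. The fibroblast list was then highest on normal 3 (0.417, against 0.397 on normal 2). The endothelial list was highest on normal 7 (0.326 against 0.284) and the leukocyte list on normal 6 (0.322 against 0.307). On each of slides 1 to 3, miR-200a, miR-200b, miR-429 and miR-205 were lower in row 4 than in row 3. The other epithelial markers were mixed in direction. The part of position and of these lists in the low epithelial values was not tested.

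**Figure D3:**
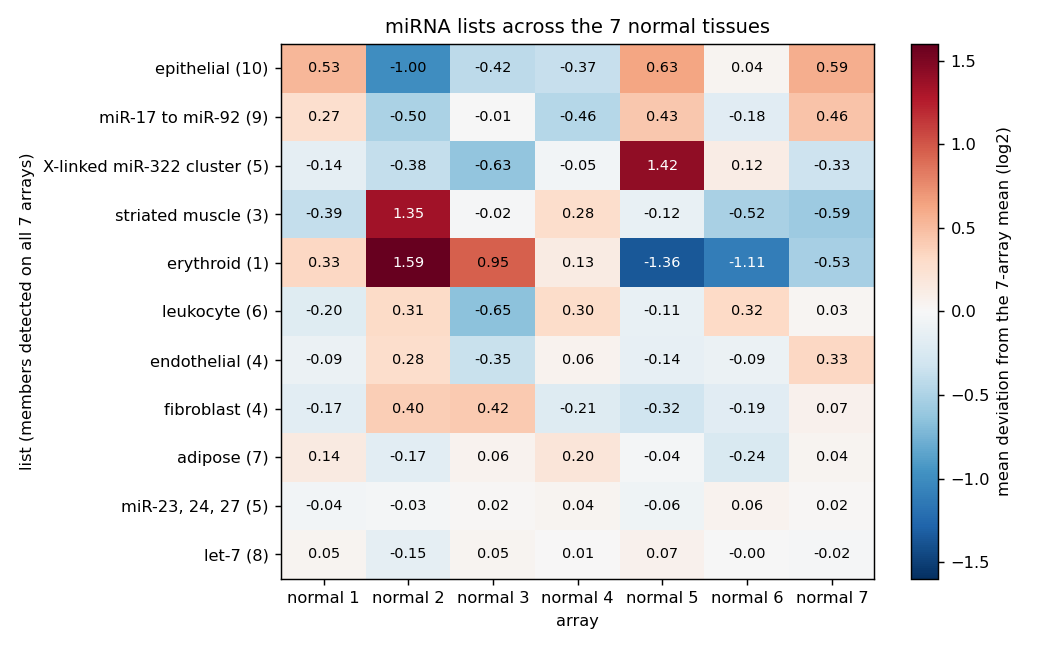
Mean deviation from the 7-array mean (colour and printed value, log2 scale) of the members of 11 miRNA lists (y axis, with the number of members detected on all 7 arrays) on each normal array (x axis). The epithelial list was lowest on normal 2, the X-linked list stood at 1.42 on normal 5, and the let-7 and miR-23, 24, 27 lists stayed near 0 on every array.

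Among the 172 miRNAs detected on all 7 arrays, most varied little. The median SD of the log2 level was 0.316, with 48 miRNAs under 0.2, 42 over 0.5 and 5 over 1. For 74 the highest array exceeded the lowest by over 2-fold, and for 17 by over 4-fold. The within-slide SD, from the 3 slides with 2 normal arrays, had a median of 0.347, and it was the smaller value for 48 of the 172 miRNAs.

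**Figure D4:**
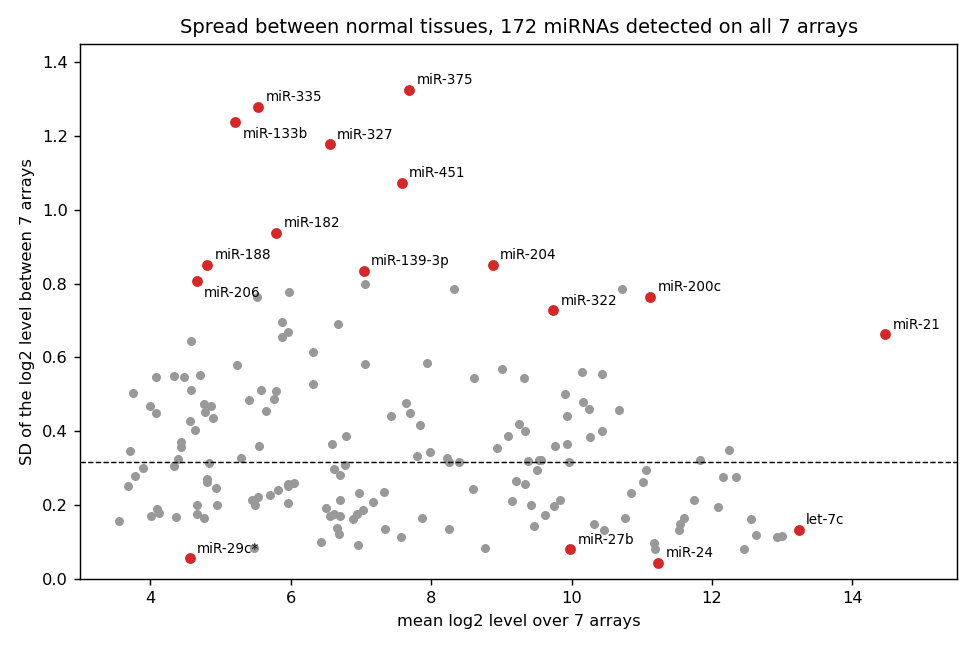
SD of the log2 level between the 7 arrays (y axis) against the mean log2 level (x axis) for the 172 miRNAs detected on all 7 arrays; red points are named and the dashed line is the median SD of 0.316. The 5 miRNAs with an SD over 1 lie at mean levels of 5.21 to 7.68, while miR-21, at 14.47, stands above its bright neighbours with an SD of 0.66.

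The widest spread was that of miR-375, known from pancreatic islets and from some epithelia. Its level was 8.67, 6.24, 5.70, 7.37, 9.36, 8.34 and 8.12 on normals 1 to 7, an SD of 1.33 and a 12.7-fold range. It was lowest on normals 2 and 3, where the epithelial list was below its mean, and highest on normal 5, the array with the highest epithelial deviation. On normal 4 the epithelial list was also below its mean, at -0.37, and miR-375 was at 7.37. Its second probe was dimmer and had an SD of 0.988. On normal 3 the 2 probes of miR-375 deviated from their own means by values 0.789 apart. The dimmer probe stood at the floor there, so that gap does not show that the probes disagree. miR-182, the most variable of the epithelial list, had an SD of 0.94, from 4.40 on normal 2 to 6.96 on normal 7.

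miRNAs of muscle and blood were among the most variable, and most of them were highest on normal 2. miR-133b, which skeletal muscle makes, had a level of 4.98, 7.38, 5.37, 5.84, 5.29, 3.92 and 3.69 on normals 1 to 7, an SD of 1.24. miR-206, its cluster partner, had an SD of 0.81 and was highest on normal 2 at 6.03. miR-1, of heart and skeletal muscle, was at 6.66 on normal 2 and at 3.30 to 4.46 on the other 6 arrays, where 3.30 is the floor. These 3 were highest on normal 2, whereas miR-499, of slow and cardiac muscle, was highest on normal 3, at 4.70 against 4.59 on normal 2. Normal 2 held row 4, and miR-206 was higher in row 4 than in row 3 on each of slides 1 to 3, by at least 0.705. miR-133b and miR-499 were mixed in direction, and the part of position was not tested. miR-451, an erythroid miRNA that is cut by Argonaute rather than Dicer, had a level of 7.91, 9.17, 8.53, 7.71, 6.22, 6.47 and 7.05, an SD of 1.07. Its cluster partner miR-144 was detected on 5 arrays and was highest on the same array, normal 2, at 5.62, and at the floor on normals 5 and 6.

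miR-335, which lies in an intron of the imprinted gene Mest, was high where the epithelial list was below its mean. Its level was 5.04, 6.36, 7.59, 6.18, 3.88, 4.30 and 5.39 on normals 1 to 7, an SD of 1.28 and a 13.1-fold range, highest on normals 2, 3 and 4 and lowest on normal 5. miR-204, which lies in an intron of Trpm3, had an SD of 0.85, with levels of 9.97 and 10.06 on normals 1 and 3 and of 7.95 to 8.87 on the other 5. miR-327 had an SD of 1.18, from 4.41 on normal 3 to 8.11 on normal 6, and miR-188 an SD of 0.85, from the floor of 3.30 on normal 3 to 5.78 on normal 6. On each of slides 1 to 3 the row 4 array was lower than the row 3 array for miR-204 and higher for miR-327 and miR-188, by at least 0.67, 0.77 and 1.08 on the log2 scale, and the part of position was not tested. miR-139-3p, from the Pde2a gene, had an SD of 0.84 and was lowest on normal 3, at 5.62. On normal 3 the 2 probes of miR-139-3p deviated from their own means by values 0.709 apart. The second probe, with a mean level of 4.01, stood at the floor there, so that gap does not show that the probes disagree.

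At the other end, miR-24 had the smallest spread. Its level lay between 11.18 and 11.30 on all 7 arrays, an SD of 0.04. The next were miR-29c* with an SD of 0.06, miR-27b, let-7d, miR-23a, miR-151 and miR-128 with 0.08, miR-324-3p with 0.09, and miR-23b and miR-324-5p with 0.10. Of these 10, miR-24, miR-27b, miR-23a and miR-23b come from the same pair of clusters. The scaling sets each array by its 75th percentile, so a small SD means that a miRNA followed that percentile.

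**Figure D5:**
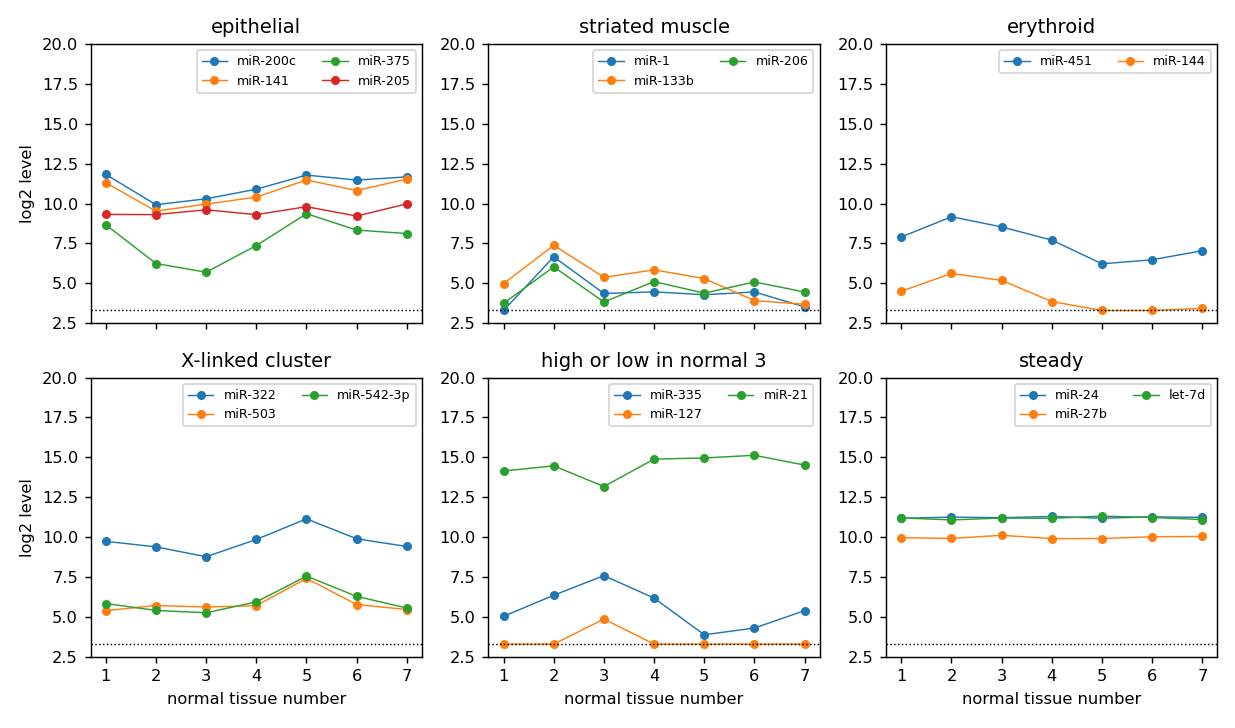
Log2 level (y axis) on normal tissues 1 to 7 (x axis) of single miRNAs in 6 panels; the dotted line is the floor at 3.30, and lines join the points of a miRNA for reading only. miR-1, miR-133b, miR-206 and miR-451 were highest on normal 2, miR-322, miR-503 and miR-542-3p on normal 5, and miR-335 on normal 3, while miR-24 stayed between 11.18 and 11.30.

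The X-linked cluster from miR-322 to miR-450a stood apart on normal 5. miR-322 and miR-503, which repress cell cycle genes during muscle differentiation, head this cluster. miR-322 had a level of 9.74, 9.39, 8.77, 9.85, 11.15, 9.89 and 9.41 on normals 1 to 7, and miR-503 was at 7.41 on normal 5 and at 5.39 to 5.78 on the other 6. The mean deviation of the 5 members detected on all arrays was 1.42 on normal 5 and between -0.63 and 0.12 elsewhere. Normal 5 was the highest array for every one of them. Without it, the SD fell to 0.421 from 0.73 for miR-322, to 0.152 from 0.70 for miR-503 and to 0.111 from 0.55 for miR-450a. The star form miR-322* was also highest there, at 6.59.

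Members of the miR-17/92 family of clusters, which promote the cell cycle, were detected on all arrays for 9 of 10, against 172 of all 350 miRNAs (49.1%). Members of these clusters held 3.06% ± 0.768 of the signal. Their mean deviation was 0.27, -0.50, -0.01, -0.46, 0.43, -0.18 and 0.46 on normals 1 to 7. Of the 9, 8 had an SD above the overall median. miR-19b was the brightest, with levels of 11.02, 10.19, 10.75, 10.06, 11.21, 10.43 and 11.10, lower on normals 2, 4 and 6 than on the other 4. These 3 arrays held row 4 of their slides, as did normal 7, where miR-19b was high, and the part of position in this pattern was not tested.

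The leukocyte list was lowest on normal 3, or on normal 1 without scaling. miR-142-3p, made by blood-derived cells, had a level of 9.16 there and of 10.06 to 10.63 on the other 6 arrays. miR-146a, which answers to NF-kB, had a level of 9.42 there and of 9.99 to 10.71 on the other 6. miR-223, of myeloid cells, ranged from 9.28 on normal 3 to 10.44 on normal 6. Of the 6 leukocyte members, all but miR-150 were higher in row 4 than in row 3 on each of slides 1 to 3, miR-223 by 0.91 to 1.14 and miR-146a by 0.65 to 1.06. Normal 3 held row 3, and the part of position was not tested. miR-150, of lymphocytes, did not follow them, with 8.68 on normal 3 and its lowest level of 8.18 on normal 6.

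The imprinted Dlk1-Dio3 cluster, a large group of miRNA genes expressed from the maternal chromosome, was mostly undetected. Of the 37 members listed here that were on the array, miR-494 and miR-539 were detected on all 7 arrays, 15 on some and 20 on none. Over all 350 miRNAs, 172 were detected on all 7, 60 on some and 118 on none. Of the 17 miRNAs found on normal 3 alone, 11 belong to this list, which makes up 37 of all 350 miRNAs. Among the 11 were miR-127 at 4.87, miR-434 at 4.48 and miR-136 at 4.12, each at the floor on the other 6 arrays. The other strand of miR-136, miR-136*, is not in the list and was also found on normal 3 alone. The summed share of the whole list was 0.189% on normal 3, and 0.146% to 0.265% on the other 6 arrays. Much of that sum was miR-494, with 0.0784% on normal 3 and 0.114% to 0.240% on the other 6. The 15 partly detected members together held 0.0930% on normal 3 and 0.0110% to 0.0341% on the other 6. Of these 15, 11 were found on normal 3 alone, so their sum is high there by selection. The 2 members detected everywhere were at their lowest on normal 3, miR-494 at 6.92 and miR-539 at 3.82. Normal 3 held row 3, and miR-539 was higher in row 4 than in row 3 on each of slides 1 to 3, by at least 0.788. miR-494 was mixed in direction, and the part of position was not tested. Normal 3 was also the brightest array. Normal 2, nearly as bright, detected 3 of the 15 partly detected members, and normal 3 detected 12.

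miR-194, the miRNA that the study names in its title, was close to the limit of detection in normal tissue. It was detected on normals 2, 3, 4 and 5, at a level of 3.59 on normal 3 and of 3.30 to 3.37 on the other 6 arrays, where 3.30 is the floor. Its rank by mean share was 188 of 350. miR-192, which shares a transcript with miR-194, was detected on all 7 arrays, with levels of 3.83, 3.30, 4.17, 3.92, 3.91, 3.69 and 3.62 on normals 1 to 7. miR-215, the miR-192 relative in the other miR-194 cluster, was detected on none.

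Of the minor strands, miR-199a-5p was the brightest, with rank 31 and 0.765% ± 0.244 of the signal, and it varied with its partner miR-199a-3p, as both were highest on normal 2. The next, miR-140*, of cartilage and other mesenchyme, held 0.0979% ± 0.0200. The partner strands miR-30a* and miR-30e* both peaked on normal 1, with levels of 6.04 and 6.38. Among miRNAs missed on some arrays, miR-132, a neuronal activity miRNA, was detected on 6 arrays with levels from the floor to 4.92, and miR-130b on 6 with levels up to 4.22. Apart from miR-375 and miR-139-3p, whose dimmer probes were at the floor where their gaps were largest, the largest disagreement between probes was for miR-125a-3p. Its 2 probes detected on all arrays had SDs of 0.429 and 0.909.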

How the data were processed

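Small RNA of 23 samples was hybridised to 1-colour (Cy3) Agilent arrays after dephosphorylation and ligase labelling, per the labels' protocols. The deposited scanner files hold spot intensity on a linear scale, and per the file headers they come from Agilent Feature Extraction 9.5.1.1. The authors' deposited value table holds total gene signal as intensity: above its minimum of 5, 100% of values matched the scanner files within 1%. It is not centred or normalized between arrays; array medians of the normal tissues ran from 9.07 to 20.7.

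The processed signal was averaged over spots without outlier marks for each of 938 probes, leaving out 953 control spots per array. To scale each array, its 75th percentile was taken over 199 probes that all 23 arrays detected. A floor of 9.82 (log2 3.30) was set, the array median of the dimmest signal still well above background, before taking log2. The probe with the highest mean over 23 arrays stood for a miRNA. Shares used unscaled signal, with negative values as 0. Errors are SDs over 7 arrays; no groups were tested, and the number of arrays limits precision. Named miRNAs are the 25 brightest, the 10 with the largest and smallest SD among those detected on all 7 arrays, the 10 brightest minor strands and partly detected miRNAs, list members, miR-192, miR-194, miR-215 and up to 5 whose probes disagree. The normexp alternative (offset 50, limma 3.58.1, R 4.3.3) used the median signal, as the files analysed here have no mean signal column. Other steps used Python 3.11.15 and were tested on simulated data. The miRNAs and lists were chosen with earlier results of these data known.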

Additional observations from a re-analysis of the deposited data

Results flagged for a closer look

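For each of 128 sets of array values the array farthest from the others was compared with the range of all 7 by Dixon's ratio. In 8 sets, each of them the levels of a miRNA, an array stood apart. Chance alone marks about 1 in 20 groups, and 8 of 128 is near that share, so the count is not a result in itself. Values are log2 levels. Normal 5 was high for 3 neighbours of the X-linked cluster: miR-503 at 7.41 (5.39 to 5.78 on the other 6), miR-450a at 5.69 (4.13 to 4.40) and miR-322* at 6.59 (5.27 to 5.71). Normal 3 was low for both strands of miR-142, with miR-142-3p at 9.16 (10.06 to 10.63) and miR-142-5p at 5.85 (6.49 to 6.94). It was also high for miR-194 at 3.59 (3.30 to 3.37), but 5 of the 7 levels of miR-194 were at the floor, so its ratio says nothing about the spread. Normal 2 was high for miR-1 at 6.66 (3.30 to 4.46) and low for let-7b at 12.37 (12.65 to 12.72).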

How the results depend on the processing

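miR-21 stayed the brightest miRNA under each of the 13 other settings of probe summary, background and left-out array, with 13.3% to 15.95% of the signal, and 24 or 25 of the 25 brightest were shared. With normexp background the 10 brightest held 46.2% of the signal, the median SD was 0.221, and summed shares became 0.211% for striated muscle, 0.396% for neural, 0.335% for liver and gut, 21.4% for let-7, 5.14% for the miR-15 and miR-16 family, 1.05% for Dlk1-Dio3 and 0.0825% for miR-192, miR-194 and miR-215; the cause was not tested. Without scaling the median SD was 0.550, and none of the 10 steadiest miRNAs was shared; with normexp 1 was. Taking each spot as detected by its positive-and-significant mark left 53 miRNAs detected on no array. In settings chosen after seeing the data, the median SD was 0.256 over the 3 arrays of position row 3 and 0.246 over the 4 of row 4. Leaving out 1 array at a time gave a median SD of 0.291 to 0.325, 43 to 60 partly detected miRNAs (43 without normal 3) and 118 to 135 undetected ones (135 without normal 3). The epithelial list was lowest on normal 2 under every scaling tried except none, where normal 6 was lowest. Of the 10 most variable miRNAs, 5 were shared with normexp and 7 to 10 with the other settings. No paired analysis was possible because the normal tissues were compared with no other group. Low signals limit the dimmer miRNAs: near the floor, levels have no order.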

Other observations

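Array position moved with some levels, in a comparison chosen after seeing the data. On slides 1 to 3, the row 4 array was higher than the row 3 array on all 3 slides for 35 of the 172 miRNAs detected everywhere and lower on all 3 for 43, and for 94 the direction was mixed. By over 0.5 on the log2 scale, 9 were higher and 7 lower. miR-327 was higher by 0.77, 2.82 and 1.79 on slides 1, 2 and 3, miR-188 by 1.08, 2.14 and 1.22, and miR-223, of myeloid cells, by 0.92, 1.14 and 0.91. For miR-19b of the miR-17/92 clusters the row 4 minus row 3 difference was -0.83, -0.70 and -0.78, and for miR-204 it was -1.76, -2.11 and -0.67. Normal 7, also in row 4, lay nearer to the row 4 mean for 3 of the 9 and 1 of the 7, and for 21 of the 35 and 11 of the 43. The steadiest miRNA, miR-24, differed by 0.08, 0.08 and 0.09. The tissues in row 3 and row 4 were different samples, so position and sample cannot be told apart.

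The miRNAs detected on normals 2, 4 and 6 and on no other array were miR-134, miR-345-3p, miR-874, miR-493, miR-877 and miR-297. Normals 2, 4 and 6 held row 4 of their slides, but so did normal 7, which detected none of these miRNAs.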
